A study of Homo sapiens with 97 samples.

Results

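Complexes II, III and IV of the respiratory chain are described here through 36 nuclear genes, 24 coding for subunits and 12 for assembly factors, among the 60675 gene identifiers of each count table. The 36 are a list of gene symbols that sets no threshold on expression, drawn up with earlier results of these data known. Each was found under its symbol and tested in all 36 comparisons. The symbols matched 38 identifiers, of which 2, read-through loci named UQCR11 and SDHD, were left out. They were divided by role into 16 small subunits, 8 larger subunits that are made with a presequence, and 12 assembly factors. These roles were assigned with the list and not checked against another annotation. The label of the set fits them, except that OXA1L, counted as an assembly factor, is entered as an insertase and under none of these complexes.

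RNA was measured in human HEK293T cells, a line derived from embryonic kidney, that stably expressed the peroxidase APEX2 fused to a targeting sequence. Labelled cells took up biotin-phenol for 30 min and were given hydrogen peroxide for 1 min, which tags RNA close to the enzyme; unlabelled controls were treated alike but without peroxide, and tagged RNA was then enriched and sequenced. The constructs were NLS (nucleus), NIK (nucleolus), LMA (nuclear lamina), NucPore (nuclear pore), NES (cytosol), ERM (endoplasmic reticulum membrane), KDEL (endoplasmic reticulum lumen), OMM (outer mitochondrial membrane) and MITO (mitochondrial matrix). OMM and NES cells were also studied with cycloheximide, puromycin or CCCP, and after 3, 6, 9 and 30 min and 2 h of nocodazole, where unlabelled libraries exist for 3 and 30 min; MITO cells also gave total RNA, and unlabelled fractionated cells gave a nuclear and a cytosol fraction. Each group held 2 libraries, besides 1 technical repeat of the second labelled MITO library; the labels do not say whether a pair came from separate cultures, so the p-values measure a spread between libraries that may be technical. All constructs are protein fusions in stable lines; doses and times of cycloheximide, puromycin and CCCP are not given in the sources used here.

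Complex II oxidises succinate, complex III passes electrons from ubiquinol to cytochrome c, and complex IV reduces oxygen; III and IV also pump protons. Their nuclear-encoded proteins are made in the cytosol and imported, many behind an N-terminal presequence rich in arginine and lysine, and their messenger RNAs may be held at the mitochondrial surface by the nascent chain. Cycloheximide stops elongation and leaves ribosomes with their nascent chains on the message, puromycin releases the chains, CCCP collapses the membrane potential that drives import, and nocodazole takes microtubules apart.

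The coding starts of 7 members are shown because these messages gave the largest or the most contrasting differences below. They are the first 25 codons of a coding transcript in GENCODE 29 on GRCh38, with codons for arginine and lysine in capitals. The transcript was chosen by annotation tags (APPRIS principal, basic and CCDS) and only then by coding length. The first 5 belong to the members that rose at the outer mitochondrial membrane with cycloheximide. They hold 4 to 6 basic and 0 acidic codons: SDHA 5 basic, UQCRC1 4, UQCRC2 6, COX15 5 and SCO1 4. COX8A, with 5 basic and 0 acidic codons, did not pass the test there, and COX6B1, with 4 basic and 4 acidic, fell. Of the others that fell, SDHD and COX11 each held 3 basic and 0 acidic codons, COX7C 5 and 2, and UQCRQ 4 and 2. SDHC and SCO2, each with 4 basic and 0 acidic codons, were not called. The coding start thus did not separate the members that rose, and its part was not tested.
SDHA: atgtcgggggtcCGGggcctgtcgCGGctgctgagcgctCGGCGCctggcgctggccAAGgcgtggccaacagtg
UQCRC1: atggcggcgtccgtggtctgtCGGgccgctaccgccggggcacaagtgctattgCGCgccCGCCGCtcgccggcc
UQCRC2: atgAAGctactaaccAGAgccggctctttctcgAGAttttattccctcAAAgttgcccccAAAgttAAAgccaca
COX15: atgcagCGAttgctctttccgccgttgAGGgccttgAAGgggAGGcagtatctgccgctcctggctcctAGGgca
SCO1: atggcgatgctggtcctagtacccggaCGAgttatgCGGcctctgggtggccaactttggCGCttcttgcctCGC
COX8A: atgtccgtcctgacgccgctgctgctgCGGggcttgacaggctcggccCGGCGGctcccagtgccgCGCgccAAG
COX6B1: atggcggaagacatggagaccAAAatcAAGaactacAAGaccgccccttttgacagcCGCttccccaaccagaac
On GRCh38, SDHA lies on chromosome 5 at 218241 to 256700 (plus strand, coding start 218356) and UQCRC1 on chromosome 3 at 48599002 to 48610976 (minus strand, coding start 48609620). UQCRC2 lies on chromosome 16 at 21952660 to 21983660 (plus, 21953424), COX15 on chromosome 10 at 99711844 to 99732100 (minus, 99732049) and SCO1 on chromosome 17 at 10672474 to 10698375 (minus, 10697507). COX8A lies on chromosome 11 at 63974607 to 63976543 (plus, 63974681) and COX6B1 on chromosome 19 at 35648223 to 35658861 (plus, 35651244). Each shown stretch is coding exon sequence.

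The small subunits had coding lengths of 168 to 507 bases (median 265.5), the larger presequence subunits 477 to 1992 (median 907.5) and the assembly factors 189 to 1485 (median 901.5). Levels below are CPM (counts scaled to library size) after TMM scaling within a table. Per kilobase of exon, the median level over the 18 unlabelled libraries of the 9 constructs was 18.0 to 316 CPM in the small subunits, 9.50 to 98.9 in the larger subunits and 2.46 to 33.9 in the assembly factors. The highest was COX8A, subunit VIII of complex IV, at 316 CPM per kilobase (132 to 456 over libraries), then COX6B1 at 156, COX7C at 143 and UQCR10 at 140; the ranges of these 4 overlapped. CYC1, the cytochrome c1 of complex III, led the larger subunits at 98.9, and the copper chaperone SCO2 the assembly factors at 33.9.

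Total counts, in units of 1e6, were 9.33 to 76.7 for the construct libraries, 2.84 to 76.7 where MITO was fitted alone, 22.7 to 55.8 under the drugs, 15.5 to 34.0 over the nocodazole times and 35.0 to 45.0 for the 4 fractionation libraries. Some libraries lacked many genes that the others of their table held at a mean of at least 5 CPM: both unlabelled OMM libraries with cycloheximide lacked 3.08% and 7.75% of them, the 4 unlabelled OMM libraries with nocodazole 2.98% to 16.3%, ERM labelled 1 5.02%, the NIK labelled libraries 6.06% and 2.94%, NES unlabelled 1 3.37%, OMM unlabelled 2 4.06%, NES 3 min unlabelled 2 6.77%, OMM 2 h labelled 1 4.58% and MITO total labelled 1 6.72%. Of the remaining libraries 3 lacked 2.10% to 2.21%, and the others under 2.0%. The summed level of 5 HEK293T markers was 46.1 to 322 CPM, and that of 6 markers of other cell types 0.0 to 22.7 (median 1.36). Copies elsewhere in the genome were found by name, pseudogenes and UQCRHL, and their sequences were not compared. They held counts equal to 74.0% of those of COX6A1, 56.3% of UQCRH, 19.2% of COX20, 17.7% of COX17 and 10.4% of SDHA. Reads of these members may therefore have been divided, which was not tested. COX20 shares 3502 exon bases with HNRNPU on the opposite strand, and same-strand genes share 1186 exon bases with COX19, 1069 with COX15, 857 with SCO2 (its second identifier), 383 with COX17, 319 with SDHD, 235 with UQCR11, 175 with COX8A, 175 with COX6A1 and 79 with COX7C.

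Values given as x ± y are log2 fold changes with their standard error from edgeR's quasi-likelihood test, and a gene was called where its Benjamini-Hochberg adjusted p, over all genes of the comparison, was under 0.05. Over the 36 comparisons COX6B1, a small subunit at the intermembrane-space side of complex IV, was called most often, 2 times higher and 18 times lower. SDHA, the flavoprotein of complex II, was higher 9 times and lower 4 times. COX15, which makes heme A, was higher 7 times and lower 1 time. SDHC, an anchor of complex II, COX10, which farnesylates heme for complex IV, and COX20 were called 1 time each. COX18 and COX19 were called in 0 comparisons by edgeR; at an unadjusted p under 0.05 there were 0 for COX18 and 7 for COX19, and DESeq2 called them in 0 and 5. Comparisons that share libraries are among these, so the counts are not independent.

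**Figure D1:**
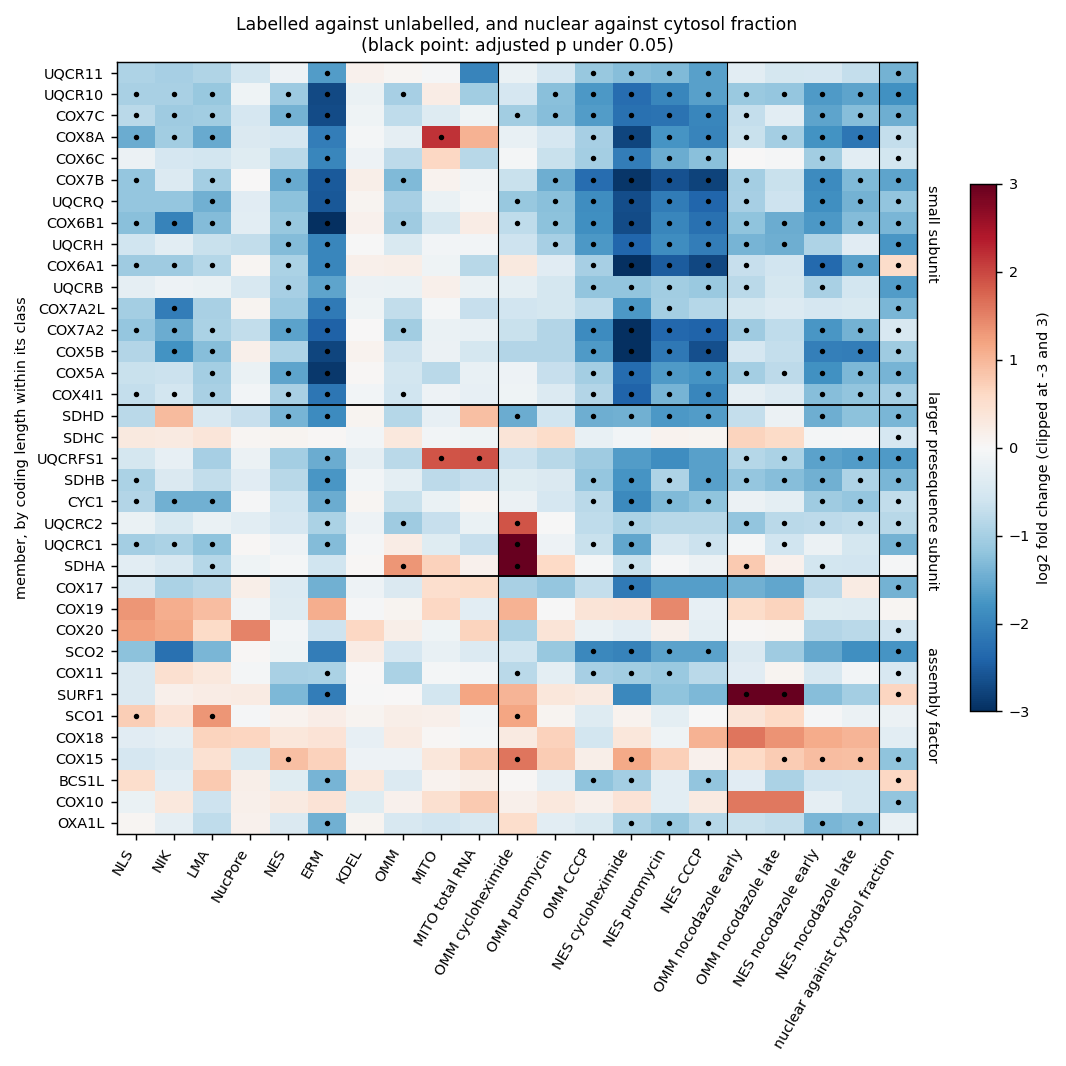
Log2 fold change of the 36 members (rows, grouped by role and ordered by coding length) in 21 comparisons of labelled with unlabelled libraries, or of the nuclear with the cytosol fraction (columns). Black points mark an adjusted p under 0.05; red columns stand out for SDHA, UQCRC1 and UQCRC2 in OMM with cycloheximide and for COX8A and UQCRFS1 in MITO, and blue fills most small subunits in ERM and NES.

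The ERM construct labels RNA at the endoplasmic reticulum membrane, where messages of secreted and membrane proteins are known to gather. All 16 small subunits fell there, with 6 of 8 larger subunits and 4 of 12 assembly factors, 26 of 36 members in all, against 7.6% of all genes called lower; 0 members rose, against 1193 of 22680 genes. The median log2 fold change was -2.30 in small subunits, -1.40 in larger subunits and -0.79 in assembly factors, and 0.00 over all genes. COX6B1 had 10.4 and 22.9 CPM in labelled ERM libraries, against 188 and 190 in unlabelled ones (-3.50 ± 0.27, adjusted p = 2.5e-11). COX4I1, the complex IV subunit with the longest coding sequence here, had 65.4 and 74.9 CPM labelled and 299 and 336 unlabelled (-2.18 ± 0.17, adjusted p = 3.55e-11). COX7C had 49.8 and 63.0 CPM labelled and 372 and 350 unlabelled (-2.68 ± 0.25, adjusted p = 9.86e-10). In these 3 messages every labelled library lay below every unlabelled one, by more than the spread between replicates.

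Among the larger subunits SDHB, the iron-sulfur protein of complex II, had 44.1 and 37.0 CPM in labelled and 141 and 131 in unlabelled ERM libraries (-1.75 ± 0.26, adjusted p = 4.28e-06), and UQCRC1, a core protein of complex III, 114 and 98.2 against 224 and 302 (-1.31 ± 0.20, adjusted p = 8.32e-06). SDHA, at 139 and 65.3 CPM labelled and 152 and 158 unlabelled, did not pass the test (-0.60 ± 0.24, adjusted p = 0.11). SDHC had 143 and 138 CPM labelled and 152 and 122 unlabelled, groups that overlapped (0.03 ± 0.25, adjusted p = 1). Of the assembly factors OXA1L, which inserts proteins into the inner membrane, fell by 1.43 ± 0.26 on the log2 scale (adjusted p = 9.82e-05), BCS1L, which inserts the Rieske protein, by 1.39 ± 0.31 (adjusted p = 0.00132), COX11 by 0.96 ± 0.32 (adjusted p = 0.0396) and SURF1 by 2.07 ± 0.60 (adjusted p = 0.0166). SURF1 had 3.45 and 10.9 CPM labelled against 29.9 and 30.1 unlabelled, and lost its call in 7 of 11 alternatives, while BCS1L lost it in 4 of 11. Of 24 tested other genes of these complexes 1 rose, LYRM7, a complex III assembly factor (1.38 ± 0.37), and 9 fell, among them HIGD2A (-3.40 ± 0.34) and UQCC2 (-2.90 ± 0.35).

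In NES, 10 of 16 small subunits, 1 of 8 larger subunits and 0 of 12 assembly factors fell, 11 members against 2.5% of all genes, and 1 rose against 1.38%. COX7B had 82.2 and 64.6 CPM in labelled and 212 and 205 in unlabelled libraries (-1.51 ± 0.24, adjusted p = 0.000125), and SDHD, the other anchor of complex II, 36.3 and 27.3 against 105 and 60.8 (-1.38 ± 0.33, adjusted p = 0.0098). The member that rose was COX15, with 121 and 141 CPM labelled and 57.7 and 83.0 unlabelled (0.89 ± 0.25, adjusted p = 0.0309); it lost its call in 6 of 11 alternatives, and SDHD in 4 of 11. Without NES labelled 2 the members called numbered 3, without NES unlabelled 1 they numbered 7, and with only the 4 libraries of the comparison fitted 0.

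The difference between ERM and NES labelling was tested directly. It was lower in ERM for 6 members against 1.69% of all genes, 5 small subunits and UQCRC1 (-1.15 ± 0.28, adjusted p = 0.0109). COX6B1 (-2.37 ± 0.35, adjusted p = 3.74e-05), COX4I1 (-1.21 ± 0.23, adjusted p = 0.00126) and COX8A (-1.57 ± 0.34, adjusted p = 0.0043) were among them. The count was 13 without ERM labelled 2 and 11 without NES unlabelled 2.

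In NLS 8 of 16 small and 3 of 8 larger subunits fell, 11 members against 2.42% of all genes, and 1 assembly factor rose against 2.78%. In NIK 9 small and 2 larger subunits fell, 11 against 3.96%, where the labelled libraries lacked 6.06% and 2.94% of the genes held at 5 CPM, whose part in the result was not tested, and in LMA 11 small and 3 larger subunits fell, 14 against 4.0%, while 1 assembly factor rose against 3.67%. The factor in both was SCO1, which delivers copper to complex IV; as a count, 1 of 36 is no more than the share over all genes. SCO1 had 202 and 178 CPM in labelled and 73.5 and 76.8 in unlabelled LMA libraries, groups far apart (1.34 ± 0.22, adjusted p = 9.95e-05). In NLS it had 155 and 179 CPM labelled and 104 and 97.4 unlabelled (0.73 ± 0.22, adjusted p = 0.0468), a call lost in 6 of 10 alternatives. In NIK SCO1 had 153 and 174 CPM labelled and 135 and 111 unlabelled, and was not called.

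COX8A fell in all 3 of these comparisons: with 65.9 and 53.6 CPM in labelled and 156 and 178 in unlabelled NLS libraries (-1.48 ± 0.25, adjusted p = 0.000147), by 1.04 ± 0.24 on the log2 scale in NIK (adjusted p = 0.0079) and by 1.51 ± 0.25 in LMA (adjusted p = 6.64e-05). COX6B1 had 29 and 26.5 CPM in labelled NIK libraries, against 111 and 113 in unlabelled ones (-2.01 ± 0.25, adjusted p = 5.94e-06). UQCRC1 fell in each as well, by 1.02 ± 0.20 in NLS (adjusted p = 0.000946), 0.96 ± 0.20 in NIK (adjusted p = 0.00232) and 1.20 ± 0.20 in LMA (adjusted p = 7.94e-05). The assembly gene COA5, outside the 36, rose in all 3, by 1.89 ± 0.41, 2.18 ± 0.42 and 1.71 ± 0.41 in NLS, NIK and LMA. Members called in NLS numbered 6, 2, 4 and 6 without labelled 1, labelled 2, unlabelled 1 and unlabelled 2; in NIK 6 without unlabelled 2 and 0 with only its own libraries fitted; in LMA 9, 6 and 9 without labelled 1, labelled 2 and unlabelled 1.

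NucPore and KDEL gave no called member, and 0.0% of all genes were called in each. By edgeR 6 members in NucPore and 0 in KDEL had an unadjusted p under 0.05, and DESeq2 called 0 in each; without NucPore labelled 2 there were 2 calls in NucPore. COX6B1 had 126 and 123 CPM in labelled and 159 and 154 in unlabelled NucPore libraries, and 182 and 131 against 146 and 141 in KDEL.

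At the matrix construct COX8A and UQCRFS1 rose. They were 2 of 36 members called higher in MITO, against 0.873% of all genes. COX8A had 667 and 785 CPM in labelled libraries, against 144 and 179 in unlabelled ones (2.17 ± 0.25, adjusted p = 4.67e-07). UQCRFS1, the Rieske iron-sulfur protein of complex III, had 524 and 415 CPM labelled and 134 and 119 unlabelled (1.89 ± 0.33, adjusted p = 0.000659). Both messages were more than the replicate spread above their controls, and both kept their call in all 11 alternatives. COX6C, next among the small subunits by size of rise, had 197 and 225 CPM labelled and 125 and 151 unlabelled and did not pass the test (0.61 ± 0.29, adjusted p = 0.595).

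In total RNA of the same construct UQCRFS1 had 192 and 92.1 CPM in labelled and 42.6 and 32.5 in unlabelled libraries (1.91 ± 0.34, adjusted p = 0.0226). It was the 1 member called, against 0.617% of all genes, and lost its call in 6 of 10 alternatives. COX8A, at 157 and 132 CPM labelled and 85.4 and 55.7 unlabelled, did not overlap between groups and did not pass the test (1.04 ± 0.27, adjusted p = 0.154). Members called numbered 0, 3, 0 and 0 without labelled 1, labelled 2, unlabelled 1 and unlabelled 2. Genes of the mitochondrial genome took 1.08% to 58.8% of the counts over the poly(A) construct libraries and 83.0% of MITO total labelled 1, and their part in these results was not tested. The partner subunits that are made inside mitochondria, MT-CO1, MT-CO2 and MT-CO3 of complex IV and MT-CYB of complex III, rose in MITO by 4.43 ± 0.27, 2.69 ± 0.32, 3.41 ± 0.28 and 3.98 ± 0.29. They fell, 4 of 4, in NES, ERM and OMM.

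**Figure D2:**
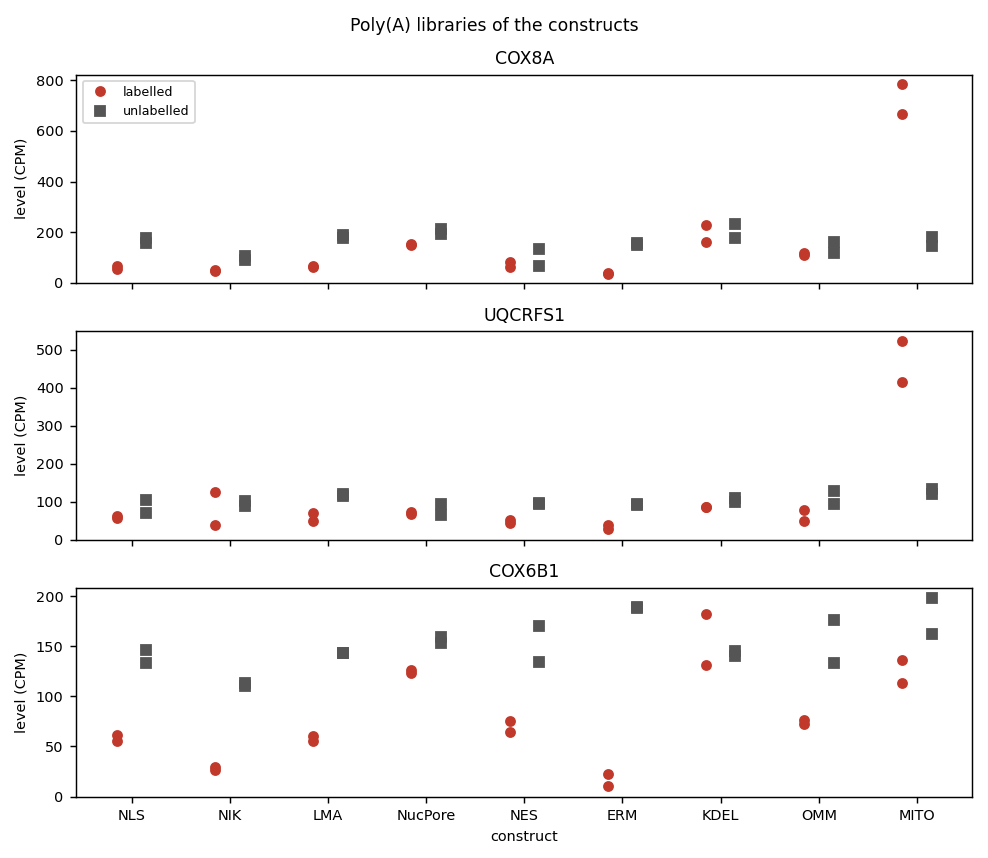
Level in CPM of COX8A, UQCRFS1 and COX6B1 in each poly(A) library of the 9 constructs, labelled (red circles) and unlabelled (grey squares), 2 libraries each. The labelled MITO libraries of COX8A (667 and 785) and UQCRFS1 (524 and 415) lie above all others, and labelled COX6B1 is lowest in ERM (10.4 and 22.9).

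At the outer mitochondrial membrane of untreated cells SDHA was the 1 member that rose, against 3.0% of all genes, while 6 fell against 1.98%. As a count, the 1 member that rose is no more than the share over all genes. SDHA had 487 and 491 CPM in labelled OMM libraries, against 169 and 219 in unlabelled ones (1.33 ± 0.24, adjusted p = 0.000378). UQCRC2, the second core protein of complex III, went the other way, with 142 and 127 CPM labelled and 275 and 285 unlabelled (-1.06 ± 0.20, adjusted p = 0.000789). UQCRC1 had 247 and 270 CPM labelled and 260 and 181 unlabelled, groups that overlapped (0.23 ± 0.20, adjusted p = 0.658). The other 5 that fell were the small subunits COX7B (-1.31 ± 0.23, adjusted p = 0.000285), COX6B1 (-1.06 ± 0.25, adjusted p = 0.00557), COX7A2, UQCR10 and COX4I1. SDHA and UQCRC2 kept their calls in all 11 alternatives, whereas COX4I1 lost its call in 7, COX6B1 in 4, UQCR10 in 4 and COX7B in 1. Members called numbered 3, 4 and 3 without labelled 1, labelled 2 and unlabelled 2.

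SDHA was also the 1 member whose labelling was higher in OMM than in NES (1.39 ± 0.34, adjusted p = 0.0205), against 1.58% of all genes. In NES it had 156 and 151 CPM labelled and 144 and 175 unlabelled. The call was lost in 6 of 14 alternatives, and 0 members were called without NES labelled 1, NES labelled 2, OMM labelled 1, OMM labelled 2 or OMM unlabelled 1, and 2 without NES unlabelled 2 or OMM unlabelled 2. Against ERM, labelling was higher in OMM for 10 small and 3 larger subunits, 13 members against 1.6%, among them COX6B1 (2.44 ± 0.35, adjusted p = 7.16e-05), SDHA (1.93 ± 0.34, adjusted p = 0.000877), COX7C (1.93 ± 0.33, adjusted p = 0.000644) and UQCRC1 (1.54 ± 0.28, adjusted p = 0.00116). Without ERM labelled 2 that count was 20. The OMM, NES and ERM comparisons of this kind share libraries.

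With cycloheximide SDHA and UQCRC1 rose at the mitochondrial surface. In OMM cells with the drug 5 members rose, 3 of 8 larger subunits and 2 of 12 assembly factors, against 12.4% of all genes, and 5 fell, 3 of 16 small subunits, 1 larger subunit and 1 assembly factor, against 5.35%. The count of members that rose is thus near the background, while the size of change in SDHA and UQCRC1 was far from the median of all genes, 0.40. SDHA had 3208 and 2650 CPM in labelled libraries, against 164 and 114 in unlabelled ones (4.39 ± 0.21, adjusted p = 4.01e-11). UQCRC1 had 3526 and 3347 CPM labelled and 213 and 316 unlabelled (3.70 ± 0.19, adjusted p = 8.86e-11). In both messages the labelled libraries differed from each other by far less than from the controls.

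UQCRC2 had 764 and 692 CPM labelled and 266 and 128 unlabelled (1.89 ± 0.30, adjusted p = 0.000125), COX15 231 and 238 against 100 and 53.0 (1.62 ± 0.29, adjusted p = 0.000455), and SCO1 146 and 152 against 91.1 and 41.0 (1.18 ± 0.33, adjusted p = 0.0191). The groups did not overlap in these 3, although the unlabelled libraries differed widely from each other. SCO1 lost its call in 5 of 10 alternatives, and UQCRC2 and COX15 each lost it in 1. SDHD, with 32.0 and 54.7 CPM labelled and 111 and 132 unlabelled, fell most (-1.49 ± 0.30, adjusted p = 0.00134). COX7C fell by 1.03 ± 0.19 on the log2 scale (adjusted p = 0.000608), UQCRQ by 1.13 ± 0.29 (adjusted p = 0.00951), COX6B1 by 0.76 ± 0.20 (adjusted p = 0.0103) and COX11 by 0.80 ± 0.26 (adjusted p = 0.0404). Of these that fell, COX11 lost its call in 6 of 10 alternatives, UQCRQ in 4, COX6B1 in 4, SDHD in 2 and COX7C in 1. COX8A overlapped between groups, with 141 and 104 CPM labelled and 107 and 177 unlabelled (-0.21 ± 0.20, adjusted p = 0.477).

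Of the other genes of these complexes LRPPRC, which stabilises mitochondrial messenger RNAs, rose (1.60 ± 0.17, adjusted p = 1.95e-06), with UQCC1 (0.96 ± 0.28) and TIMM21 (1.03 ± 0.33), 3 of 24, a share near the 12.4% of all genes called higher, and 5 of 24 fell. Members called in OMM with cycloheximide numbered 6 without either labelled library, 18 without unlabelled 1, and 2, SDHA and UQCRC1, with only the 4 libraries of the comparison fitted. Both unlabelled libraries lacked many genes, as given above, and UQCRFS1 had 109 and 2.31 CPM in them, against 38.0 and 33.3 in the labelled ones; their part in the counts of calls was not tested. With the unlabelled NES libraries as controls instead, an alternative chosen after seeing the data, SDHA (4.27) and UQCRC1 (3.57) were again higher. So were UQCRC2 (1.71), COX15 (1.67) and OXA1L (1.02), and 15 members were lower. The share of all genes called with these controls is not given here, so these counts are not results about the members.

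Labelled NES libraries with cycloheximide had 27 of 36 members lower, 16 of 16 small subunits, 6 of 8 larger subunits and 5 of 12 assembly factors, against 7.77% of all genes, and 1 higher, COX15 (1.14 ± 0.28, adjusted p = 0.00807), against 7.91%. COX6A1 had 19.9 and 16.4 CPM labelled and 136 and 175 unlabelled (-3.10 ± 0.24, adjusted p = 2.92e-08). COX8A had 23.5 and 23.1 CPM labelled and 148 and 166 unlabelled (-2.76 ± 0.22, adjusted p = 3.92e-08). UQCRC1 had 103 and 94.1 CPM labelled and 298 and 279 unlabelled (-1.55 ± 0.17, adjusted p = 2.8e-06), and SDHA 112 and 79.1 against 149 and 155 (-0.67 ± 0.18, adjusted p = 0.015). No labelled library of these 4 reached an unlabelled one.

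The difference between OMM and NES labelling with cycloheximide was higher in OMM for 19 members, 13 small and 5 larger subunits and 1 assembly factor, against 9.38% of all genes. UQCRC1 (5.25 ± 0.25, adjusted p = 1.4e-10) and SDHA (5.07 ± 0.27, adjusted p = 3.6e-10) led, then COX6A1 (3.38 ± 0.32), UQCRC2 (2.83 ± 0.41), COX8A (2.54 ± 0.29) and COX4I1 (2.28 ± 0.28), with adjusted p from 4.66e-07 to 8.62e-05. For COX8A and COX6A1 the difference came with depletion in NES and no call in OMM. The assembly factor was OXA1L (1.46 ± 0.35, adjusted p = 0.00811). The medians were 1.97 in small subunits, 1.58 in larger subunits and 0.84 in assembly factors, against 0.27 over all genes.

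**Figure D3:**
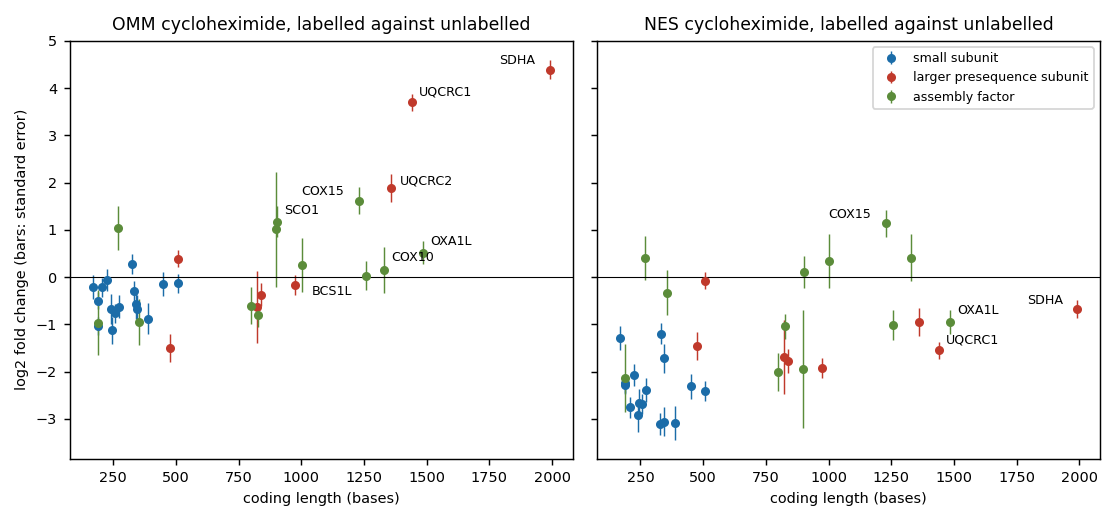
Log2 fold change, with its standard error, of each member against its coding length in bases, in OMM (left) and NES (right) with cycloheximide, coloured by role. In OMM the members that rose, SDHA, UQCRC1, UQCRC2, COX15 and SCO1, have coding lengths from 903 to 1992 bases. COX10, OXA1L, BCS1L, COX18 and CYC1, within the same range of length, did not pass the test. In NES all small subunits lie below 0.

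Across the 36 members the change with cycloheximide followed coding length in part, with a Spearman coefficient of 0.59 in OMM and 0.57 in NES. Over all protein-coding genes tested it was 0.07 in OMM and 0.26 in NES, with 14761 genes. For the other drugs it was 0.68 and 0.60 with puromycin and 0.49 and 0.61 with CCCP in OMM and NES among members, and 0.26, 0.28, 0.31 and 0.35 over protein-coding genes. These are coefficients across genes of the same libraries, given as a description. The 5 that rose in OMM had coding lengths of 903 bases or more: SCO1 903, COX15 1230, UQCRC2 1359, UQCRC1 1440 and SDHA 1992. Other members of such length did not pass the test: OXA1L, at 1485 bases, had 247 and 273 CPM labelled and 145 and 217 unlabelled (0.52 ± 0.25, adjusted p = 0.153), COX10, at 1329, gave 0.16 ± 0.49 (adjusted p = 0.902) and BCS1L, at 1257, 0.04 ± 0.31 (adjusted p = 1). COX18, at 1002 bases, and CYC1, at 975, were not called either.

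With puromycin no member rose in OMM. Labelled OMM libraries had 6 members lower, all small subunits, against 1.18% of all genes: UQCR10, with 54.6 and 57.2 CPM labelled and 132 and 137 unlabelled (-1.26 ± 0.18, adjusted p = 0.000505), COX7C (-1.28 ± 0.19, adjusted p = 0.00063), COX6B1 (-1.24 ± 0.20, adjusted p = 0.00141), COX7B, UQCRQ and UQCRH. SDHA had 268 and 275 CPM labelled and 171 and 186 unlabelled, groups that did not overlap, and did not pass the test (0.61 ± 0.18, adjusted p = 0.116). UQCRC1 had 250 and 283 CPM labelled and 298 and 298 unlabelled (-0.16 ± 0.17, adjusted p = 0.895). Members called numbered 3, 2 and 3 without labelled 1, labelled 2 and unlabelled 2, and 22 with only the 4 libraries of the comparison fitted.

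In NES with puromycin 22 members were lower, 16 small subunits, 3 larger subunits and 3 assembly factors, against 4.58%. COX6A1 had 24.4 and 30.1 CPM labelled and 162 and 144 unlabelled (-2.49 ± 0.23, adjusted p = 6.23e-07), COX7C 76.3 and 73.9 against 351 and 340 (-2.20 ± 0.19, adjusted p = 4.93e-07), and SDHA 178 and 170 against 164 and 194. The difference between OMM and NES labelling passed the test for 1 member, COX6A1 (2.14 ± 0.31, adjusted p = 0.00681), against 0.0979% of all genes; 0 were called without NES labelled 1 or OMM unlabelled 1. Some reads of COX6A1 may belong to its copies, as given above.

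With CCCP 22 members were lower in OMM, 15 small subunits, 4 larger subunits and 3 assembly factors, against 3.57%. COX6B1 had 76.0 and 59.3 CPM labelled and 270 and 218 unlabelled (-1.85 ± 0.20, adjusted p = 8.61e-06), UQCR10 53.2 and 56.0 against 183 and 177 (-1.72 ± 0.18, adjusted p = 7.35e-06), and SCO2 12.7 and 14.7 against 61.7 and 43.4 (-1.93 ± 0.40, adjusted p = 0.00471). SDHA, at 209 and 170 CPM labelled and 176 and 215 unlabelled, overlapped between groups (-0.05 ± 0.18, adjusted p = 0.97). Members called numbered 13, 9 and 13 without labelled 1, labelled 2 and unlabelled 1. In NES with CCCP 22 were lower as well, 15 small subunits, 4 larger subunits and 3 assembly factors, against 5.08%, led by COX6A1 (-2.73 ± 0.23, adjusted p = 2.37e-07) and COX6B1 (-2.25 ± 0.20, adjusted p = 5.41e-07). The difference between OMM and NES labelling gave 0 called members by edgeR, against 0.00933% of all genes; 4 members had an unadjusted p under 0.05, and DESeq2 called 2; the smallest adjusted p was that of COX6A1 (1.73 ± 0.31, adjusted p = 0.0663). Without OMM unlabelled 1 there was 1 call.

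The drugs were compared with each other and with untreated cells through their labelling at the outer membrane. Cycloheximide exceeded puromycin for 3 members against 4.53% of all genes: UQCRC1 (3.86 ± 0.25, adjusted p = 1.31e-08), SDHA (3.79 ± 0.26, adjusted p = 3.5e-08) and UQCRC2 (1.89 ± 0.41, adjusted p = 0.00733). Without OMM unlabelled 1 or 2 of the cycloheximide libraries 9 and 6 were called. Cycloheximide exceeded untreated labelling for 4 members against 1.73%: UQCRC1 (3.44 ± 0.26, adjusted p = 4.81e-09), SDHA (3.04 ± 0.26, adjusted p = 4.29e-08), UQCRC2 (2.92 ± 0.38, adjusted p = 2.02e-05) and COX15 (1.74 ± 0.39, adjusted p = 0.012); 7 were called without cycloheximide OMM unlabelled 1. SDHA and UQCRC1 kept their calls in all 14 alternatives of both differences and in all 10 of OMM with cycloheximide.

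CCCP minus untreated labelling was lower for SDHA (-1.32 ± 0.26, adjusted p = 0.0266), 1 member against 0.113%, a call lost in 6 of 14 alternatives. The count was 0 without OMM labelled 1, OMM labelled 2, CCCP labelled 1, CCCP labelled 2 or CCCP unlabelled 2, and 2 without OMM unlabelled 1. Puromycin minus untreated and CCCP minus puromycin gave 0 called members by edgeR, against 0.317% and 0.0% of all genes; at an unadjusted p under 0.05 there were 3 and 10, and DESeq2 called 0 in each. The untreated libraries were deposited in another table and fitted jointly on raw counts, so a drug effect and a difference between sets of libraries cannot be told apart, and the comparisons share libraries. The source names of the 4 OMM cycloheximide libraries also lack the poly(A) mark that the other drug libraries carry, although their molecule is given as poly(A) RNA; whether their preparation differed was not tested.

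**Figure D4:**
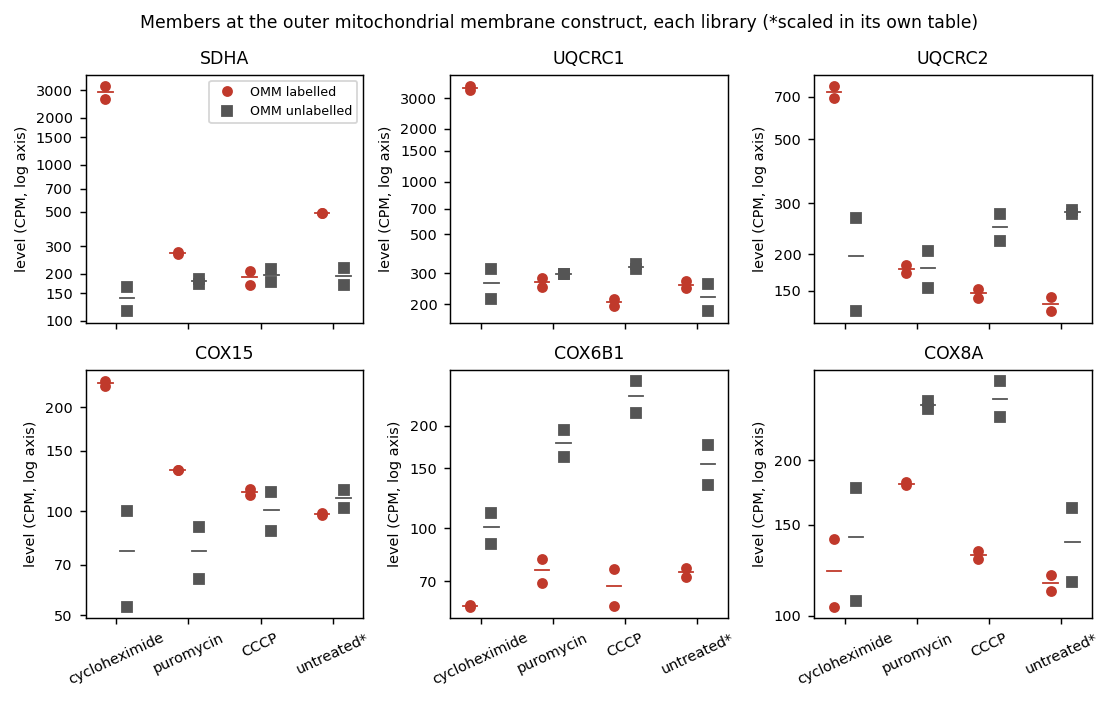
Level in CPM (log axis) of SDHA, UQCRC1, UQCRC2, COX15, COX6B1 and COX8A in each OMM library, labelled (red circles) and unlabelled (grey squares), with short lines at the mean of 2 libraries. The asterisk marks the untreated libraries, scaled within their own table; labelled SDHA (3208 and 2650) and UQCRC1 (3526 and 3347) stand apart with cycloheximide.

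Nocodazole was analysed as early (3, 6 and 9 min) and late (30 min and 2 h), each against the unlabelled libraries of 3 and 30 min. In OMM 11 small and 3 larger subunits were lower early, 14 members against 4.98% of all genes, and 2 members were higher against 16.6%. Late, 5 small and 4 larger subunits were lower, 9 against 4.13%, and 2 were higher against 11.5%. SDHA was higher early (0.79 ± 0.16, adjusted p = 0.00135) and not called late (0.14 ± 0.17, adjusted p = 0.815). It had 409 and 344 CPM in labelled OMM libraries at 3 min, 424 and 431 at 6 min, 184 and 140 at 9 min, 181 and 233 at 30 min and 198 and 142 at 2 h. The libraries of 3 and 6 min thus lay above all later ones; the unlabelled ones had 155 and 102 CPM at 3 min and 208 and 246 at 30 min.

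UQCRC1 had 333 and 223 CPM at 3 min, 282 and 292 at 6 min, 146 and 184 at 9 min, 182 and 181 at 30 min and 144 and 143 at 2 h in labelled OMM libraries, and again 3 and 6 min lay above the rest. It was not called early (-0.05 ± 0.15, adjusted p = 0.994) and was lower late (-0.59 ± 0.17, adjusted p = 0.0185), a call lost in 6 of 15 alternatives. UQCRC2 was lower early (-1.18 ± 0.16, adjusted p = 1.33e-05), with 109 and 122 CPM at 3 min against 278 and 263 unlabelled, and late (-0.82 ± 0.18, adjusted p = 0.00263). COX6B1 fell by 1.20 ± 0.23 on the log2 scale early (adjusted p = 0.000766) and by 1.48 ± 0.26 late (adjusted p = 0.000481). SDHB fell by 1.17 ± 0.24 early (adjusted p = 0.00124) and by 1.28 ± 0.27 late (adjusted p = 0.00201).

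The change between early and late labelled libraries was not called for any member, with 0 calls by edgeR in OMM and 0 in NES, against 0.331% and 0.0255% of all genes. At an unadjusted p under 0.05 there were 3 members in OMM and 6 in NES, and DESeq2 called 2 in OMM, SDHA and UQCRC1, and 1 in NES, COX6C. The late minus early values were -0.66 ± 0.16 for SDHA (adjusted p = 0.0962) and -0.55 ± 0.16 for UQCRC1 (adjusted p = 0.194). When 9 min was counted as late, a choice made after seeing the data, both were called lower in OMM, with adjusted p = 0.0002 for SDHA and 0.00596 for UQCRC1, and COX6A1 was called higher in NES (adjusted p = 0.023).

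SURF1, a factor of early complex IV assembly, was called higher in OMM early and late. It had 0 counts in both libraries of 3 min and in 30 min 2, and 19.9 CPM in 30 min 1, against 17.3 to 33.4 CPM in the 10 labelled libraries. Its fitted log2 fold change ran from 0.49 to 13.3 over the alternatives of the early comparison and is no measure of size. COX15, the second member called higher late, lost its call in 12 of 15 alternatives. With the unlabelled NES libraries as controls, chosen after seeing the data, neither SDHA nor SURF1 was called early. Members called late in OMM numbered 6 without 30 min labelled 2 and 7 without 2 h labelled 2, and 1 with only the libraries of the comparison fitted.

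In NES with nocodazole 13 small subunits, 6 larger subunits and 1 assembly factor were lower early, 20 members against 3.93%, and 1 was higher against 2.39%; late, 11 small subunits, 4 larger subunits and 1 assembly factor were lower, 16 against 3.05%, and 1 was higher against 2.0%. The higher one was COX15 (0.93, adjusted p = 0.0213 early and 0.90, adjusted p = 0.0477 late), which lost its call in 8 of 16 and 10 of 14 alternatives. COX6A1 had 22.2 and 16.7 CPM at 3 min, 22.0 and 22.6 at 6 min, 43.0 and 58.6 at 9 min, 38.0 and 60.3 at 30 min and 45.4 and 37.7 at 2 h, against 86.8 and 175 unlabelled at 3 min and 130 and 170 at 30 min (early -2.32 ± 0.23, adjusted p = 5.04e-07). COX8A was lowest late (-2.18 ± 0.26, adjusted p = 1.67e-05). Members called late numbered 9, 9, 10 and 9 without 30 min labelled 1, 2 h labelled 1, 2 h labelled 2 and 30 min unlabelled 2.

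The difference between OMM and NES labelling was higher in OMM for 5 members early, against 6.09% of all genes, and for 1 late, against 2.87%. Early these were SDHA (1.34 ± 0.22, adjusted p = 0.000534), COX6A1 (1.64 ± 0.33, adjusted p = 0.00355), COX4I1 (1.01 ± 0.24, adjusted p = 0.0131), COX8A (1.13 ± 0.33, adjusted p = 0.0401) and SURF1. Late it was SURF1 alone. COX8A was itself lower than its controls early, with log2 fold changes of -0.66 in OMM (adjusted p = 0.0426) and -1.79 in NES (adjusted p = 1.33e-05). SDHA kept its early call in all 27 alternatives, and COX8A lost it in 14. SURF1 lost its late call in 6 of 23 alternatives, and with the unlabelled NES controls, chosen after seeing the data, its adjusted p was 0.828 late and 0.419 early. Early counts were 11, 11, 15 and 9 without OMM 3 min unlabelled 1, OMM 3 min unlabelled 2, OMM 30 min unlabelled 1 and NES 30 min unlabelled 1. Late counts were 8, 5, 10, 4 and 2 without OMM 3 min unlabelled 1, OMM 3 min unlabelled 2, OMM 30 min unlabelled 1, NES 30 min unlabelled 1 and NES 3 min unlabelled 1, and 0 without any of the 4 late labelled NES libraries.

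**Figure D5:**
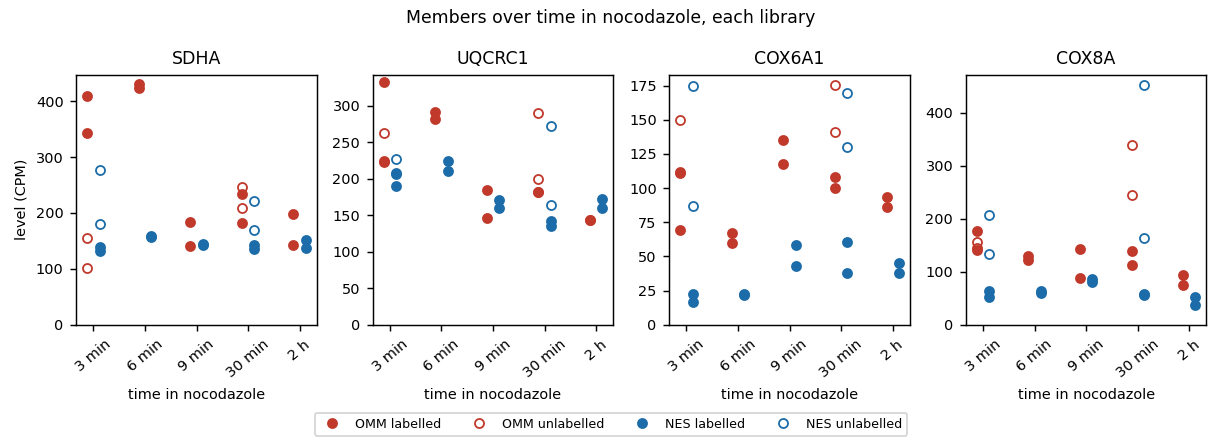
Level in CPM of SDHA, UQCRC1, COX6A1 and COX8A by time in nocodazole, for each labelled (filled) and unlabelled (open) OMM (red) and NES (blue) library. Labelled SDHA in OMM lies at 344 to 431 at 3 and 6 min and at 140 to 233 from 9 min on; labelled NES libraries of COX6A1 and COX8A lie below both labelled OMM libraries of the same time.

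The fractions, made without labelling, set 28 of 36 members lower in the nuclear fraction, against 27.8% of all genes, and 3 higher, against 34.2%. The lower ones were 15 of 16 small subunits, 7 of 8 larger subunits and 6 of 12 assembly factors, with median log2 fold changes of -1.38, -1.10 and -0.39, and 0.11 over all genes. UQCR10 had 85.3 and 72.2 CPM in the nuclear fraction, against 255 and 297 in the cytosol (-1.81 ± 0.18, adjusted p = 6.6e-06), UQCRFS1 78.9 and 62.8 against 213 and 246 (-1.70 ± 0.18, adjusted p = 1.18e-05), and SCO2 14.4 and 14.1 against 35.5 and 61.7 (-1.77 ± 0.27, adjusted p = 0.000144). COX15, higher in labelled NES libraries, was lower in the nuclear fraction, at 56.1 and 48.2 CPM against 116 and 123 (-1.20 ± 0.18, adjusted p = 0.000109).

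Higher in the nuclear fraction were BCS1L, with 134 and 132 CPM against 75.6 and 98.0 in the cytosol (0.61 ± 0.18, adjusted p = 0.0108), COX6A1, with 148 and 131 against 79.4 and 111 (0.56 ± 0.19, adjusted p = 0.0239), and SURF1, with 22.1 and 23.1 against 15.8 and 13.2 (0.64 ± 0.25, adjusted p = 0.0396). SURF1 and COX6A1 each lost the call in 5 of 8 alternatives, and BCS1L in 2. SDHA had 173 and 153 CPM in the nuclear fraction and 144 and 191 in the cytosol, which overlapped (-0.04 ± 0.18, adjusted p = 0.855). SCO1, higher in labelled NLS and LMA libraries, had 102 and 102 CPM in the nuclear fraction and 103 and 126 in the cytosol (-0.17 ± 0.18, adjusted p = 0.428). The 4 partner messages of the mitochondrial genome fell in the nuclear fraction, by 2.89 to 4.18 on the log2 scale. In bulk samples such as all of these, fewer cells with a message and less of it per cell cannot be told apart.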

How the data were processed

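Gene counts were analysed for 97 libraries in 49 groups, from 5 count tables. The authors deposited raw counts per Ensembl gene; per the submitters' processing notes reads were trimmed with Trimmomatic, aligned with STAR to GRCh38 and counted with HTSeq, with no versions, and the strand setting of the counting is not given in the sources used here. Libraries were stranded, per the labels' protocols. Tables of log2 ratios and of p-values were deposited too, for which the submitters' processing notes name DESeq2; of them the gene names alone were used.

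From these counts 6 models of group means were fitted with edgeR 4.0.16 in R 4.3.3 (TMM scaling, filterByExpr by group, quasi-likelihood F test, Benjamini-Hochberg adjustment over all genes of a comparison, threshold 0.05), giving 36 comparisons of labelled with unlabelled libraries, of such differences between constructs, drugs or times, and of fractions. Standard errors were obtained by dividing the size of a log2 fold change by the root of its F value. The procedure was tested on simulated data, with 1 comparison from each count table. Of genes changed 2-fold it called from 4.48% (MITO total RNA) to 59.7% (fractions). Of genes changed 4-fold it called from 38.8% (OMM nocodazole early) to 100% (fractions). Many changes of such size may thus go uncalled outside the fractions. DESeq2 1.42.0, RLE factors, no filter, a replicate block, other controls, smaller fits and left-out libraries were alternatives. Same-numbered libraries deviated together with correlations of -0.16 to 0.03 (constructs), -0.04 to 0.03 (drugs), -0.18 and -0.01 (MITO) and -0.13 to 0.13 (nocodazole), and of 0.15 in the 1 pair of the fractions, so numbers were not taken to pair samples. Coding length is that of the coding transcript in GENCODE 29 chosen by the tags APPRIS principal, basic and CCDS, and only then by length.

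Values were given for up to 3 members of smallest p in each direction and role, and for COX8A, COX4I1, COX6B1, UQCRC1, SDHA, COX10, COX15, OXA1L and SURF1 in the main comparisons; others were named after their values were seen. The members and lists were chosen with earlier results of these data known.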

Additional observations from a re-analysis of the deposited data

Results flagged for a closer look

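Labelling differed between constructs or conditions by a test of the difference itself. It did so for 6 members between ERM and NES, 1 between OMM and NES (SDHA) and 13 between OMM and ERM. The shares of all genes called in the same direction were 1.69%, 1.58% and 1.6%. With cycloheximide 19 members differed between OMM and NES, against 9.38% of all genes, and with puromycin 1 (COX6A1), against 0.0979%. At the outer membrane 3 members differed between cycloheximide and puromycin, 4 between cycloheximide and untreated cells and 1 between CCCP and untreated cells (SDHA). The shares of all genes in the same direction were 4.53%, 1.73% and 0.113%. With nocodazole 5 members differed between OMM and NES early, against 6.09% of all genes, and 1 late (SURF1), against 2.87%. As a count, the 1 late member is no more than the share over all genes. In 3 of the 4 unlabelled OMM libraries SURF1 had 0 counts, and its late call was lost in 6 of 23 alternatives.

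The technical repeat of MITO labelled 2 entered no comparison. As CPM computed outside the mitochondrial genome, COX8A had 561 in the repeat, 694 and 763 in the labelled libraries and 144 and 193 in the unlabelled ones. UQCRFS1 had 401 in the repeat, 544 and 403 labelled and 134 and 128 unlabelled. Both lay above both unlabelled libraries and were among the 10 of 36 members that did so. The share over all genes was not computed, so that count is not a result about the members.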

How the results depend on the processing

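No named value of a called member reversed; of 197 such values 99 kept their call under every alternative run. For the counts of members called under alternatives or with a library left out, the share of all genes called is not given here. Those counts describe the processing and are not results about the members. RLE factors and the summed technical repeat moved no count of members called by over 1.5 times. With only the libraries of the comparison fitted, the counts were 22 in NLS, 0 in NIK, 0 in NES, 3 in OMM, 1 in ERM minus NES, 0 in OMM minus NES, 3 in OMM minus ERM, 0 in MITO total RNA, 2 in OMM cycloheximide, 22 in OMM puromycin, 12 in OMM minus NES cycloheximide, 2 in OMM minus NES puromycin, 2 in cycloheximide minus untreated, 0 in CCCP minus untreated, 10 in OMM nocodazole early, 1 late, 0 in OMM minus NES nocodazole late, and 2 in OMM and 9 in NES late minus early; these fits have fewer samples. With the unlabelled libraries of all 9 constructs as controls they were 23 in NIK, 4 in NucPore, 20 in NES, 12 in OMM and 4 in MITO. Without the filter they were 10 in ERM minus NES, 2 in MITO total RNA, 2 in OMM minus NES puromycin and 1 in OMM minus NES CCCP. DESeq2 gave 3 in OMM minus NES, 2 in MITO total RNA, 10 in OMM puromycin, 5 in OMM minus NES puromycin, 2 in OMM minus NES CCCP, 5 in CCCP minus untreated, 9 in OMM minus NES nocodazole early, 4 late, and 2 in OMM and 1 in NES late minus early. Libraries that lacked many genes were left out only where the other library of their group did not. The NIK labelled libraries and the unlabelled OMM libraries with cycloheximide or nocodazole were therefore kept. Without those left out, the counts were 2 in OMM minus NES, 0 in MITO total RNA and 2 in CCCP minus untreated. The replicate block gave 13 in ERM minus NES, 20 in OMM minus ERM and 0 in MITO total RNA, and moved none of the other 33 counts by over 1.5 times. Chosen after seeing the data, the unlabelled NES controls gave 20 in OMM cycloheximide, 5 in OMM minus NES puromycin, 2 in OMM minus NES CCCP and 6 in OMM nocodazole late, and 9 min counted as late gave 2 in OMM and 1 in NES late minus early. The cause of these shifts was not tested.

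With each library left out in turn, a lone library being taken to vary like the other groups, the counts ran from 2 to 6 in NLS, 6 to 15 in NIK, 6 to 11 in LMA, 0 to 2 in NucPore, 3 to 11 in NES, 23 to 26 in ERM, 3 to 9 in OMM, 2 to 2 in MITO, 0 to 3 in MITO total RNA, 4 to 13 in ERM minus NES, 0 to 2 in OMM minus NES and 9 to 20 in OMM minus ERM. With drugs they ran from 6 to 18 in OMM cycloheximide, 2 to 4 in OMM puromycin, 9 to 18 in OMM CCCP, 22 to 25 in NES cycloheximide, 15 to 21 in NES puromycin, 18 to 20 in NES CCCP, 17 to 24 in OMM minus NES cycloheximide, 0 to 1 in OMM minus NES puromycin, 0 to 1 in OMM minus NES CCCP, 3 to 9 in cycloheximide minus puromycin, 3 to 7 in cycloheximide minus untreated and 0 to 2 in CCCP minus untreated. With nocodazole they ran from 12 to 20 in OMM early, 6 to 16 late, 19 to 21 in NES early, 9 to 19 late, 4 to 15 in OMM minus NES early and 0 to 10 late, and in the fractions from 25 to 29. They stayed at 0 in KDEL, CCCP minus puromycin, puromycin minus untreated and both late minus early comparisons. With 2 libraries a group, a member that was not called is not shown to be unaffected, and SURF1, COX10, COX19 and SCO2 had 0 counts in some libraries.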
